A study of Rattus norvegicus with 4 samples.

Results

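Cytokines, chemokines, their receptors and 1 leukocyte surface protein were examined in rat liver 12 h after ligation of the common bile duct. The set comprises every array probe whose gene symbol is Tnf, Cd53 or Ifngr2, or begins with Ccl, Cxcl, Ccr or Cxcr followed by a digit. It holds 14 probes of 9 genes, of 1936 probes and 958 singly named genes in all. Tnf, Cd53, Ccr6, Cxcr3, Cxcr4 and Cxcl14 have 1 probe each, Ccl5 and Ifngr2 have 2, and Ccl6 has 4. Probes were kept separate, because those of Ccl6 and those of Ifngr2 disagree. All 14 were tested; no filter on low values was applied.

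The ligated group was male Sprague-Dawley rats of 250 to 300 g whose common bile duct was tied between the liver hilus and the small intestine, and the sham group was like rats whose duct was exposed but not tied. Right lateral liver lobes were taken 12 h after surgery, and the RNA of 3 rats was combined per group, so each group is 1 pool. The 2 pools were compared on 4 two-colour cDNA arrays, with the ligated pool in Cy5 on arrays 1 and 3 and in Cy3 on arrays 2 and 4. Nothing in the labels gives the arrays separate pools, so a p-value covers the spread among hybridisations, which may be technical, and says nothing of the spread among rats.

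Bile that cannot leave the liver injures hepatocytes, and resident macrophages (Kupffer cells) answer injury by releasing cytokines. Tumour necrosis factor, encoded by Tnf, activates NF-kappa-B in the cells it reaches, and NF-kappa-B in turn switches on chemokine genes. Chemokines are small secreted proteins that draw leukocytes along a gradient through G protein-coupled receptors, whose names carry an R in place of the L of the ligand. In whole liver, fewer cells of a type and less RNA per cell cannot be told apart.

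The promoters of Tnf, Ccl6 and Ifngr2 are shown because Tnf was the lowest gene of the set and because the probes of Ccl6 and Ifngr2 moved both ways. Sequences are from RefSeq, assembly GRCr8, and run from 250 bases before to 50 bases after the start of the gene, read along the gene's own strand. Capitals mark the motifs found.
Tnf promoter: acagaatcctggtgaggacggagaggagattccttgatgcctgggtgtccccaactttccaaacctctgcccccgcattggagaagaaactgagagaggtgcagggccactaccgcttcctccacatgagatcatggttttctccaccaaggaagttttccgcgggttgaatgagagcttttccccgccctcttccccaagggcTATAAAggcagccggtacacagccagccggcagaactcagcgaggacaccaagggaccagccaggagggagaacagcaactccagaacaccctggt
Ccl6 promoter: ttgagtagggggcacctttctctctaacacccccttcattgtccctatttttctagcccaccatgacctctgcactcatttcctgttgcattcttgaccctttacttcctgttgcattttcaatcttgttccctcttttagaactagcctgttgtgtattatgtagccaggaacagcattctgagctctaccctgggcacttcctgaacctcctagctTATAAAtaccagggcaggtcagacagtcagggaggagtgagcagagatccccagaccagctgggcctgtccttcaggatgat
Ifngr2 promoter: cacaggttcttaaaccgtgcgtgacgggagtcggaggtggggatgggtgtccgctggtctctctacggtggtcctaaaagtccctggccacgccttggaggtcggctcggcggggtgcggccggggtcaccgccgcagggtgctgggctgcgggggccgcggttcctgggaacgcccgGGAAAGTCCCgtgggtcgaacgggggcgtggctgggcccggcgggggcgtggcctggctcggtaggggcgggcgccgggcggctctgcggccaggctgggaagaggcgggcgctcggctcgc
The windows lie at chr20:3626435-3626734 (plus strand) for Tnf, chr10:68883317-68883616 (minus strand) for Ccl6 and chr11:44265453-44265752 (plus strand) for Ifngr2. Of the 9 genes, 8 had an entry in the promoter table, and Ccl5 did not. Searched were the NF-kappa-B consensus on either strand and TATAAA on the gene's strand; none of the matches overlap. Tnf and Ccl6 hold TATAAA from base -46 to -41 and from -32 to -27, as does Cxcr4 from -44 to -39, and 8.8% of all 33469 promoters hold it. Ifngr2 holds the NF-kappa-B consensus on the opposite strand from base -72 to -63, shown as GGAAAGTCCC, against 4.18% of all promoters. These are matches of letters and not shown to be bound sites.

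At 12 h, Tnf was lower in the ligated pool, at a log2 change of -0.57 ± 0.08 (SE, 4 arrays), or 1.48-fold. The chemokine Ccl5 was lower on both of its probes (-0.35 and -0.31), and so was the tetraspanin Cd53 (-0.27). Ccl6 was lower on 3 of its 4 probes (-0.41, -0.31 and -0.29) and higher on the other (0.35). Ifngr2, the signalling chain of the interferon-gamma receptor, was lower on 1 probe (-0.28) and higher on the other (0.31). The chemokine receptors Ccr6, Cxcr3 and Cxcr4 and the chemokine Cxcl14 did not pass the test.

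In all, 8 member probes were called lower, 2 higher and 4 neither, with limma's Benjamini-Hochberg adjusted p under 0.05 over 1648 tested probes. Over all tested probes 27.9% were called, 16.1% lower and 11.8% higher. Among the members 71.4% were called, 57.1% lower and 14.3% higher. The members were chosen with earlier results of these data known, so these shares describe the set and do not test it. Their median log2 change was -0.27, against -0.01 (-0.0106) over all tested probes. After centring the changes were small: no member probe reached 1.5-fold, which 8.01% of all probes did. Tnf stood 104th of 1648 from the lowest. Without centring, the 8 probes called lower ran from -0.95 for Tnf to -0.65 for Cd53. The 2 called higher were then at -0.04 and -0.07. Leaving out array 3 reduced the member probes called lower to 3, and leaving out array 2 reduced them to 4 with none called higher.

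**Figure D1:**
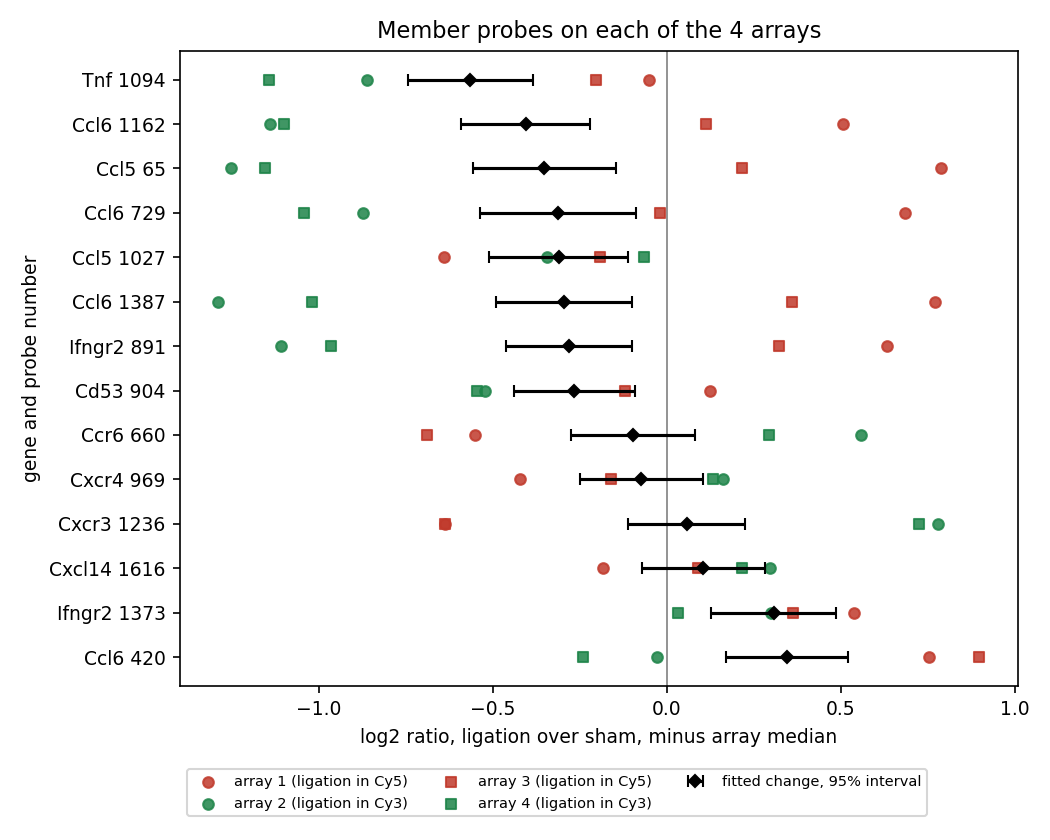
Centred log2 ratios (ligation over sham, minus the array median) of the 14 member probes on the 4 arrays. Red and green points are arrays with the ligated pool in Cy5 and in Cy3, and black diamonds with bars are the fitted change and its 95% interval. Tnf lies below 0 on all 4 arrays, whereas most Ccl6 probes lie above 0 with ligation in Cy5 and below 0 with ligation in Cy3.

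Every log2 value here is read as ligation over sham, which is likely and rests on the labels giving ligation as channel 2 on all arrays; the files do not state the direction or the base of the logarithm, which was taken as 2. Arrays of the same dye orientation correlated at r = 0.91 and 0.94 across tested probes, and arrays of opposite orientation at -0.43, -0.35, -0.29 and -0.22, and probes are not independent replicates. Medians of the deposited ratios were -1.26 and -0.96 on arrays 1 and 3, against 0.43 and 0.26 on arrays 2 and 4. At 6 of the 18 positions of each print block that carry no gene name, picked after their values were seen and 96 spots in all, the deposited ratio had medians of -1.93 and -1.84 on arrays 1 and 3 and of 1.22 and 1.05 on arrays 2 and 4. Both sets of medians changed sign with the dye, whereas a dye bias would keep 1 sign in ratios of Cy5 over Cy3. A dye term per probe was part of the fit. The reading as Cy5 over Cy3 is given only as an alternative. With centred ratios it would call 8 member probes higher and 3 lower, with Tnf at 0.44. Without centring it would put Tnf at -0.29. Every single-probe value given below for this reading is of centred ratios unless stated.

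Tnf was measured by probe 1094. Minus each array's median, its log2 ratios were -0.05 and -0.20 on arrays 1 and 3, with ligation in Cy5, and -0.86 and -1.14 on arrays 2 and 4, with ligation in Cy3. All 4 values lay below the array median, as for 7.1% of all tested probes, and the dye orientations did not overlap. The fitted change of -0.57 had a 95% interval from -0.74 to -0.39 and a limma adjusted p of 0.00013. It stayed called whichever array was left out, between -0.64 and -0.49.

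Ccl5 (RANTES), a chemokine of T cells, monocytes and platelets, had 2 probes with opposite array patterns. Probe 65 had centred log2 ratios of 0.79 and 0.21 on arrays 1 and 3, and -1.25 and -1.16 on arrays 2 and 4. Probe 1027 had -0.64 and -0.19 on arrays 1 and 3, and -0.35 and -0.07 on arrays 2 and 4. So probe 1027 was below the median on all 4 arrays, and probe 65 only where ligation was in Cy3.

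The fitted changes of the Ccl5 probes were nonetheless close, at -0.35 ± 0.10 for probe 65 (limma adjusted p = 0.012) and -0.31 ± 0.09 for probe 1027 (limma adjusted p = 0.0207). Their difference was -0.04, with a 95% interval from -0.27 to 0.19 in a limma fit over all 699 pairs of probes of 1 gene, which gave every pair the same standard error, and it was not called, against 23.3% of all pairs. The dye terms of the same 2 probes lay far apart, at 0.13 and -0.83. The call of probe 65 was lost without array 3 (-0.21, limma adjusted p = 0.0854). That of probe 1027 was lost without array 1 (-0.20, limma adjusted p = 0.119) or array 2 (-0.24, limma adjusted p = 0.178).

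Ccl6, a CC chemokine of rodents made by macrophages and other myeloid cells, had the most probes. On the deposited scale, before centring, probe 1162 read -0.75, -0.72, -0.84 and -0.84 on arrays 1 to 4. Probe 1387 read -0.49, -0.86, -0.60 and -0.76, and probe 729 read -0.57, -0.45, -0.98 and -0.78. These 3 probes gave ratios of like size in both dye orientations, whereas the array medians changed sign with the dye. A range under 0.5 over the 4 deposited values was seen for 4 of 14 member probes (28.6%), against 26.8% of all tested probes.

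Probe 420 of Ccl6 read -0.50, 0.40, -0.06 and 0.02 on arrays 1 to 4 on the same deposited scale. It was above each of the other 3 Ccl6 probes on arrays 2, 3 and 4, whereas on array 1 the 4 probes spanned only -0.75 to -0.49 and probe 1387 was the highest. After centring and fitting, probe 420 was at 0.35 ± 0.08 (limma adjusted p = 0.00496), probe 1162 at -0.41 ± 0.09 (0.00245), probe 729 at -0.31 ± 0.10 (0.0363) and probe 1387 at -0.29 ± 0.09 (0.0246).

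That the probes of Ccl6 disagree was known when they were kept separate, so their differences are given as a description, with no test. Probe 420 minus probe 1162 was 0.75, minus probe 729 it was 0.66 and minus probe 1387 it was 0.64 on the log2 scale. With each array left out in turn these ran from 0.62 to 0.89, from 0.45 to 0.87 and from 0.50 to 0.78. The other 3 pairs differed by 0.02 (0.0183 in size) to 0.11.

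Averaged over its 4 probes, Ccl6 was at -0.17 ± 0.08 (limma adjusted p = 0.144, over 1174 genes and other probes) and was not called. Among the 4 probes only probe 1162 stayed called whichever array was left out (-0.50 to -0.31). The call of probe 729 was lost without array 3 (-0.14) or array 4 (-0.27), that of probe 1387 without array 2 (-0.23) or array 3 (-0.19), and that of probe 420 without array 2 (0.29).

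**Figure D2:**
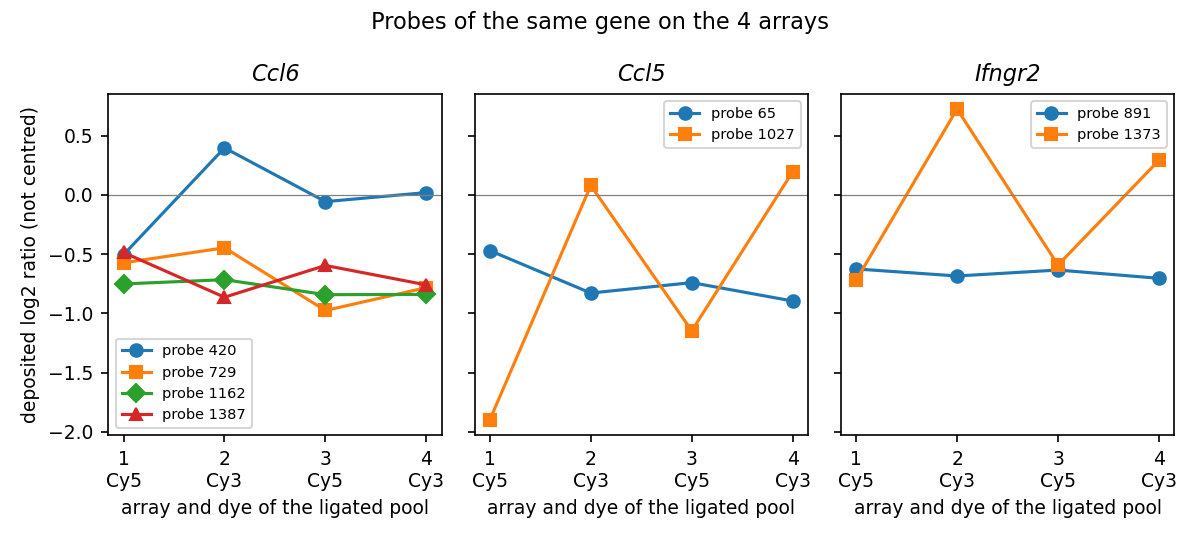
Deposited log2 ratios, not centred, of each probe of Ccl6, Ccl5 and Ifngr2 on the 4 arrays, with the dye of the ligated pool under each array number. Probe 420 of Ccl6 lies above its 3 partners on arrays 2 to 4. Probes 1027 of Ccl5 and 1373 of Ifngr2 follow the dye, whereas probe 891 stays nearly level and probe 65 runs from -0.90 to -0.47.

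Ifngr2 pairs with the ligand-binding chain Ifngr1 to form the interferon-gamma receptor and brings in the kinase Jak2. Probe 891 had nearly the same deposited log2 ratio on every array, -0.63, -0.68, -0.63 and -0.70. Probe 1373 had -0.72 and -0.59 on arrays 1 and 3, and 0.72 and 0.29 on arrays 2 and 4. The probes thus read alike where the ligated pool was in Cy5, and apart where it was in Cy3.

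After centring, probe 891 of Ifngr2 was at -0.28 ± 0.08 (limma adjusted p = 0.0217) and probe 1373 at 0.31 ± 0.08 (0.012). Their difference was -0.59, and -0.69 to -0.49 with each array left out, again a description, since this disagreement too was known when the probes were kept separate. Averaged, the gene was at 0.01 (0.0136 ± 0.08) and not called. Probe 1373 was above the median on all 4 arrays, as for 5.04% of all probes, and its call was lost without array 2 (0.24, limma adjusted p = 0.178). That of probe 891 was lost without array 2 (-0.24) or array 3 (-0.20).

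Cd53, a tetraspanin of the membrane of lymphoid and myeloid cells, was measured by probe 904. Its centred log2 ratios were 0.13 and -0.12 on arrays 1 and 3, and -0.52 and -0.55 on arrays 2 and 4. Only array 1 lay above the median. The fitted change was -0.27 ± 0.08 (limma adjusted p = 0.0239), and the call was lost without array 2 (-0.27), array 3 (-0.20) or array 4 (-0.26).

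Among the receptors, Cxcr4, which binds Cxcl12, had centred log2 ratios of -0.42 and -0.16 on arrays 1 and 3, and 0.16 and 0.13 on arrays 2 and 4. Ccr6, the receptor for Ccl20, had -0.55 and -0.69 on arrays 1 and 3, and 0.56 and 0.29 on arrays 2 and 4. Cxcr3, a receptor of activated T cells for interferon-induced chemokines, had -0.64 on both of arrays 1 and 3, and 0.78 and 0.72 on arrays 2 and 4. All 3 receptors were low where ligation was in Cy5 and high where it was in Cy3.

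The fitted changes of the receptors were -0.07 for Cxcr4 (95% interval -0.25 to 0.10), -0.10 for Ccr6 (-0.27 to 0.08) and 0.06 for Cxcr3 (-0.11 to 0.22). Cxcl14, a chemokine made by epithelia, had centred ratios of -0.18 and 0.09 on arrays 1 and 3 and 0.30 and 0.22 on arrays 2 and 4, with a fitted change of 0.10 (-0.07 to 0.28). The limma adjusted p of these 4 probes ran from 0.447 to 0.714. On the fitted scale the intervals reach about 0.28 in size. Among the 330 probes with the lowest dye terms, which include Cxcr3 and Ccr6, only 0.606% were called. Among the next 329, which include Cxcr4 and Cxcl14, 8.51% were called, against 27.9% of all tested probes. These intervals were therefore not shown to bound the change in RNA.

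The members differed in how strongly their ratios followed the dye. The dye term is the mean deposited log2 ratio with ligation in Cy5 minus that with ligation in Cy3, halved, and it ran from -1.42 for Cxcr3 to 0.14 for Ccl6 probe 1387. It was -1.25 for Ccr6, -0.94 for Cxcr4 and -0.88 for Cxcl14, the members that did not pass. The 6 unnamed positions described above had -1.51, with a change of 0.0049 after centring. Of the other unnamed positions some also followed the dye, such as position 102 (-1.33), and others did not. Position 89 had deposited medians of -0.0007, 0.02, -0.01 and -0.02 on arrays 1 to 4, and position 108 had 0.68, 0.43, 0.58 and 0.39. Leaving out the centring moved fitted changes by -0.38, a larger size than the 0.35 and 0.31 of the 2 member probes called higher. Spots level near 0 as deposited, like position 89, thus lie above both of those probes after centring. The 6 positions therefore do not settle the zero point of the centred values.

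Over all probes the ligation change widened with the dye term. Tested probes were split by dye term into 5 bins of 329 or 330. In the bin with the lowest dye terms (-1.61 to -1.15), the SD of the log2 change was 0.07 (0.069) and 0.606% were called. In the bin with the highest (-0.0636 to 0.33), the SD was 0.54 and 54.8% were called, 34.2% lower. Of the member probes, 2 lay in the lowest bin, with 0 called, and 4 in the highest, with all 4 called lower. The 3 bins between held 3, 2 and 3 member probes, of which 1, 2 and 3 were called, against 8.51%, 29.4% and 45.9% of all probes. The part of the dye term in the members' calls was not tested.

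**Figure D3:**
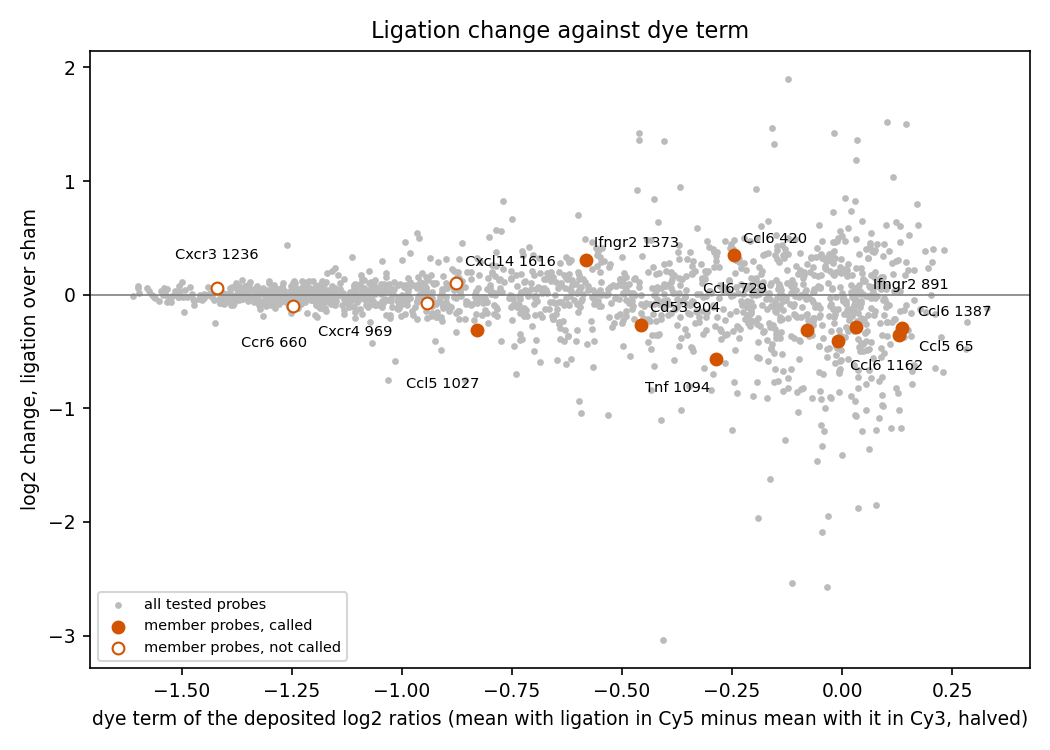
Fitted log2 change (ligation over sham) of every tested probe against its dye term, with the 14 member probes in orange, filled where called. The spread of grey points widens to the right. The uncalled members Cxcr3, Ccr6, Cxcr4 and Cxcl14 lie to the left, and Tnf lies lowest of the members at -0.57.

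The member values also moved with the zero point. Without centring, all tested probes shifted by a median of -0.38, 12 member probes were called lower and none higher, and 1330 of all probes were called lower against 31 higher. Ccl6 probe 420 was then at -0.04 and Ifngr2 probe 1373 at -0.07, so neither was higher. Centred on the 412 probes with the highest dye terms, 3 members were called lower, namely Tnf (-0.49), Ccl6 probe 1162 (-0.33) and Ccl5 probe 65 (-0.28), and 2 higher.

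**Figure D4:**
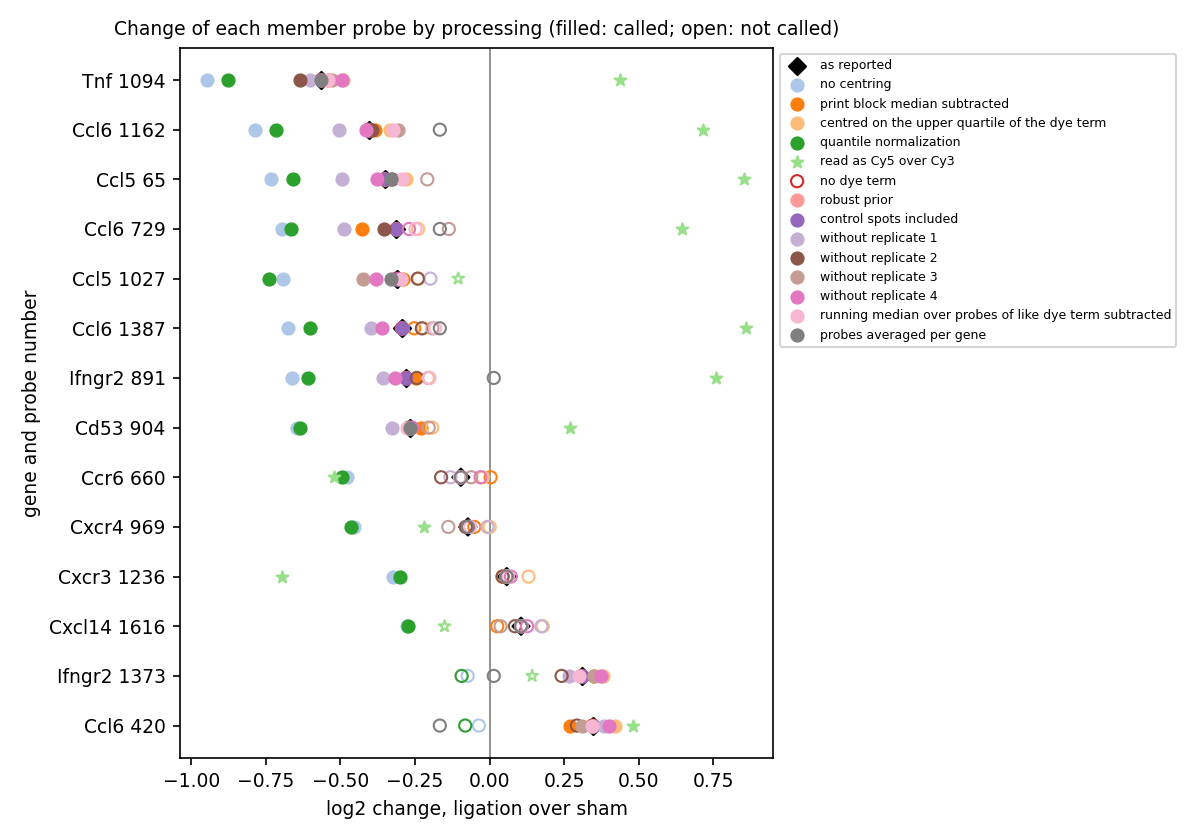
Log2 change of each member probe as reported (black diamond) and under each alternative, filled where called. Tnf stays between -0.95 and -0.49 under every alternative except the Cy5 over Cy3 reading of centred ratios (green star), which puts it at 0.44. Its point is open, that is not called, only without a dye term.

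Other genes of the same pathways came from lists chosen with earlier results of these data known. Of 20 probes of 16 other cytokines and cytokine receptors, 1 was called lower (5%, against 16.1% of all tested probes), none higher, and 19 neither. Their median change was -0.01 (-0.0083). Most of these probes lay in the 2 bins with the lowest dye terms, where 0% and 3.04% of all probes were called lower. The called probe, 1847, belongs to Ifnar1, a chain of the type I interferon receptor, at -0.80 ± 0.08 (limma adjusted p = 5.22e-06), with centred ratios of -0.30, -1.30, -0.55 and -1.06 on arrays 1 to 4. The other Ifnar1 probe, 176, was at -0.04 and not called. The cytokine Il1b was at -0.06 and -0.01 (-0.0083) on its 2 probes, and the latent growth factor Tgfb3 at -0.17 and 0.21, none called.

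Of 29 probes of 15 genes of TNF, NF-kappa-B and interferon signalling, 7 were called higher (24.1%) and 2 lower (6.9%), against 11.8% and 16.1% of all tested probes, and the median was 0.01 (0.013). The NF-kappa-B subunit Nfkb2 was at 0.84 and 0.83 on its 2 probes, above the array median on all 4 arrays in both, and it stayed called higher without centring (0.46 and 0.45). Sod2, the mitochondrial superoxide dismutase that NF-kappa-B induces, was at 0.80 on probe 311 and -0.06 on probe 1615.

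The inhibitor Nfkbia was at 0.32, and the interferon-regulated transcription factor Irf1 at 0.29 and 0.30 on its 2 probes, but without centring these became -0.06, -0.09 and -0.08. The interferon-induced Mx2 was at 0.28 on the called probe (-0.10 without centring) and 0.14 on the other. The cytokine-induced inhibitor Socs1 was lower on 1 of 8 probes (-0.38), and Stat5b was at -0.35. Calls were lost without array 4 for Mx2 (0.20), Stat5b (-0.27) and both Irf1 probes (0.30 and 0.24), and without array 2 for Nfkbia (0.31) and Irf1 probe 782 (0.28). The TNF receptor adaptor Tradd was at 0.14 and not called. Read as Cy5 over Cy3, Nfkb2 would be at 0.30 (called) and -0.04 (not called) beside Tnf at 0.44, Ifnar1 probe 1847 at 0.38, Socs1 probe 411 at 0.62, Stat5b at 0.29 and Nfkbia at 0.10 (not called).

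The leukocyte marker list bears on the cells that make these cytokines. Of its 95 genes 12 were measured, by 17 probes, of which 2 were called higher (11.8%, the share over all tested probes) and none lower, with a median of 0.0022 and a range from -0.23 to 0.31. Both called probes belong to Dpp4, a peptidase that hepatocytes and duct cells also carry (0.29 and 0.31, but -0.10 and -0.07 without centring), and both calls were lost without array 4. Nkg7 (-0.23, limma adjusted p = 0.0559) and Cd47 (0.27, limma adjusted p = 0.0551) came closest to a call without passing, in opposite directions. The T cell kinase Lck (-0.16), the sialophorin Spn (-0.01 (-0.0133) and -0.03), the Fc receptors Fcgr1a (0.0080) and Fcgr2b (-0.06) and the neutrophil protein S100a9 (-0.02 and 0.14) were not called either. Some had dye terms near those of the unnamed positions, such as -1.51 for S100a9 probe 559 and -1.32 for Fcgr1a. The platelet chemokine Pf4, the 1 other chemokine family gene measured, was at 0.02 and -0.06. The part of leukocyte number in the values of Tnf, Ccl5 and Cd53 was not tested, and signal over background cannot be read from ratios alone, so neither the liver nor the leukocyte origin of the RNA could be checked by level.

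Of markers of other liver cells, Anxa5, which many cell types express, was called higher (0.95) among 3 duct probes, the stellate cell markers Timp1 (0.35, but -0.03 without centring and not called without array 4) and Col1a1 (-0.42 on 1 of 2 probes) went both ways, and 2 of 4 endothelial probes were lower (Ece1 -1.18 and Kdr -0.33, Kdr being not called without array 1 or array 2). Read as Cy5 over Cy3, Ece1 would be at 0.84, Col1a1 at 0.28, and Kdr at -0.15 and Timp1 at -0.0005 not called. Of 11 hepatocyte probes, 2 were called lower, on 2 of the 7 probes of the cytochrome P450 Cyp2e1 (-1.36 and -1.14, against -0.14 to 0.14 on the other 5, not called), and both stayed called lower without centring (-1.74 and -1.53) but would be at 0.79 and 0.68 as Cy5 over Cy3. The 3 called higher, Apoa1 (0.38), Serpina1 (0.38) and Ttr (0.26), were at -0.0039, -0.0050 and -0.13 without centring and not called. Ttr also lost its call without array 1 (0.20), array 2 (0.26) or array 4 (0.25).

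By the distance between their 4 centred array values and those of Tnf, the nearest named probes were of the copper carrier Slc31a1 (distance 0.187 on the log2 scale), Cpt1a (0.191), the glucose carrier Slc2a4 (0.24), the bile acid carrier Slc10a1 (0.274) and Gcdh (0.298). The likeness is over 4 arrays of the same 2 pools and is a description. Their changes ran from -0.70 for Slc10a1 to -0.49 for Slc31a1.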

How the data were processed

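The values are the log2 ratios that the authors deposited for each probe of each array; how slides were scanned, background-corrected and normalized is not given in the sources used. Gene symbols came from the platform's annotation table, and all 9 member genes matched a RefSeq gene of assembly GRCr8 by gene number. Of 1936 probes, 1432 had 1 symbol, 19 several and 485 none in that table. The slide was read as 16 blocks of 121 spots, and the 288 spots at 18 positions unnamed in every block were left out as likely controls, which is inferred from position.

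Each array was centred on its median. A model with a ligation term and a probe-specific dye term was fitted to 1648 probes with limma 3.58.1 in R 4.3.3 (lmFit, eBayes; prior SD 0.168 on 11.7 degrees of freedom, 2 residual degrees of freedom per probe), with Benjamini-Hochberg adjustment and calls at adjusted p under 0.05. Differences between probes of 1 gene were fitted in the same kind of model, where the estimated prior pooled the variance fully over pairs, so all pairs share 1 standard error and their p-values rest on that. The median standard error was 0.08 (0.0826), and the number of arrays limits the precision. Named were all member probes, called genes of each list, genes of lists with few measured genes, and the 5 named probes nearest to Tnf; examples of uncalled list genes and of the other cell markers were picked after their values were seen. The members and lists were chosen with earlier results of these data known. Alternatives changed the centring, scaling, direction, dye term, prior, probes tested, averaging per gene and arrays used.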

Additional observations from a re-analysis of the deposited data

How the results depend on the processing

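Each array carries both pools, so every ratio already compares ligation and sham within 1 array. No further pairing was possible, since there are no separate samples to pair. With control spots included, a robust prior or print block centring, every call of a member kept its direction, and all kept their side of the threshold except Ccl6 probe 1387 under print block centring. With control spots included 300 probes were called higher over the table. Without a dye term no member probe was called, 0 lower and 0 higher. Among all tested probes 1 was then lower and 0 higher, since the dye difference enters the residual spread. Averaged per gene, 4 member probes were called lower through their gene and 0 higher, with Ccl6 at -0.17 and Ifngr2 at 0.01 (0.0136).

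Without centring 0 members were higher, Ccl6 probe 420 was at -0.036, Ifngr2 probe 1373 at -0.074, Cxcr3 at -0.32 and Cxcl14 at -0.28, with 1330 probes lower and 31 higher. Quantile normalization, which also leaves the median shift of -0.38, gave 0 members higher, -0.082, -0.094, -0.30 and -0.27 for the same probes, and 1420 lower and 30 higher. Centring on the highest dye terms left 3 members lower. Subtracting a running median over probes of like dye term, chosen after seeing the data, left 5 lower. Their causes were not tested.

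Read as Cy5 over Cy3 with centred ratios, 8 members were higher and 3 lower, and 790 and 556 probes over the table. Tnf was at 0.44, Ccl5 probe 65 at 0.85, Ccl6 probes 729, 1162 and 1387 at 0.65, 0.72 and 0.86, Ifngr2 probe 891 at 0.76, Cd53 at 0.27 and Cxcr3 at -0.70. Probe 420 of Ccl6 minus probes 1387, 1162 and 729 was then -0.38, -0.24 and -0.16, Ccl5 probe 65 minus 1027 was 0.96, and Ifngr2 probe 891 minus 1373 was 0.61. Without centring, this reading put Tnf at -0.29, Cd53 at -0.46, Cxcr3 at -1.42, Ccl5 probe 65 at 0.13 and Ifngr2 probe 891 at 0.03. Ccl6 probes 729, 1162 and 1387 were then at -0.08, -0.01 (-0.0094) and 0.14.

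Leaving out 1 array, the member probes called lower ranged from 3 to 7 and those called higher from 0 to 2. The probes called over the table ranged from 214 to 307 lower and from 133 to 228 higher.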
